A study of Homo sapiens with 14 samples.

Results

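Day 30 cultures were compared with day 16 cultures of one protocol that turns human pluripotent stem cells toward midbrain dopamine neurons. The 4 libraries, 2 for each day, were chosen by their labels from the 14 of the series, and no measured value entered the choice. All 4 came from H9 (WA-09), an established human embryonic stem cell line, and the labels name no genetic change. The labels call the day 16 cells neural progenitors and the day 30 cells neurons. Total RNA was sequenced, and no label says that the 2 replicates of a day were separate cultures, so every p-value measures the spread between these libraries only.

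Both days shared everything up to day 16. The cells had 0.7 µM CHIR99021 (CHIR), an inhibitor of GSK3 that turns on WNT signalling, up to day 3, and 7.5 µM from day 4 to day 10, the step named CHIR-boosting in the labels. They also received a Sonic hedgehog protein (SHH C25II), LDN and SB431542, which block BMP and TGF-beta signalling, and these were withdrawn on day 7. A Rock inhibitor was in the starting medium. From day 10 the medium held BDNF, GDNF, TGFβ3, ascorbic acid, dibutyryl cAMP and 3 µM CHIR. On day 11 the cells were replated at high density in a medium with the same factors and DAPT, an inhibitor of Notch signalling, and CHIR is not among its listed parts. The day 30 cells were replated once more on day 16 in that medium. Day 16 and day 30 thus differ in time, in 1 replating and in 14 more days with DAPT, which cannot be told apart here.

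Cultures of this kind pass from dividing floor plate progenitors to neurons that no longer divide. Progenitors are known for intermediate filaments such as vimentin and nestin, for Notch and WNT pathway genes and for the machinery of replication and mitosis. Neurons are known for neurofilaments, ion channels, synaptic vesicle proteins, transmitter receptors and adhesion molecules of axons.

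The tables have to be read row by row, because counts lie on the strand opposite to the one annotated for abundant genes. Rows annotated as antisense RNA held 33.2% and 40.3% of all gene counts at day 16 and 39.4% and 38.1% at day 30. In the day 11 tables of the same 7.5 µM protocol, which were counted separately, they held 0.304% and 0.307%. The 57820 rows were therefore split by the GENCODE 29 annotation. A first class of 11745 rows has exons that overlap exons of a gene on the opposite strand, a second of 11602 rows has an opposite-strand gene within the gene body but no exon overlap, and a last class of 29805 rows has no opposite-strand gene. The annotation had no entry for 4668 rows.

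Within the first class, the rows that can be read as another gene are those of a non-coding RNA with exactly 1 opposite-strand gene, a protein-coding one, and at least 200 bases of exon overlap. These are called paired rows here, 1388 in all, and the coding gene is called the partner. Of 909 tested paired rows with day 11 values for row and partner, the median row stood at 0.0304 CPM at day 11, its partner at 33.3 CPM, and the row at 36.9 CPM in the later libraries. In 823 of the 909 the later level was over 10 times the row's own day 11 level. Across these rows, which are not independent replicates, the later level (log2) had a Pearson r of 0.48 with the partner's day 11 level and of -0.0 with the row's own. Paired rows are described below under the partner's name. Their counts cover the overlapping bases only, a row can still hold RNA of its own, and a share of reads does not give the partner's total level.

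The sequences of 4 such pairs show what a paired row counts. Each stretch is 60 bases of the partner's coding sequence, written 5′ to 3′ in the sense of the mRNA, followed by the antisense transcript that is its reverse complement, also 5′ to 3′. Capitals mark the 10 bases of one that face the 10 in capitals of the other. They come from the GENCODE 29 transcripts, and numbers count from the first base of the start codon for the coding sequence and from the 5′ end for the antisense RNA. NCAM1 (chromosome 11, coding bases 2284 to 2343 of 2652) and SLC6A17 (chromosome 1, bases 148 to 207 of 2181) stand for rows that were higher at day 30. LEF1 (chromosome 4, bases 79 to 138 of 1197) and PLK1 (chromosome 16, bases 1084 to 1143 of 1809) stand for rows that were lower.
NCAM1: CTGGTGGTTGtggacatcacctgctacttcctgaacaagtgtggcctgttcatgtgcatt
NCAM1-AS1: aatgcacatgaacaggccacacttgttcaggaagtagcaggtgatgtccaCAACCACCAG
SLC6A17: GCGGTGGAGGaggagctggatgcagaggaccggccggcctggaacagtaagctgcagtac
AL355990.1: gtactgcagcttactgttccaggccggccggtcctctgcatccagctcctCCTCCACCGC
LEF1: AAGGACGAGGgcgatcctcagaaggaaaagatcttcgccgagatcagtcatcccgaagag
LEF1-AS1: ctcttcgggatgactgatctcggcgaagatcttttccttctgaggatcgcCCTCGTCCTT
PLK1: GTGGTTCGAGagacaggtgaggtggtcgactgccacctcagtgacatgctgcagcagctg
AC008870.3: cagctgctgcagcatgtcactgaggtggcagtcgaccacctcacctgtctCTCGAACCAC
A read from the NCAM1 message that is assigned to the wrong strand falls in the row of NCAM1-AS1, and likewise for the other 3 pairs.

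Rows with no gene on the opposite strand are read here as the gene itself, in most cases from a small remainder of its reads. The rows of COL28A1 and MT-ND6, described below, stood far above their day 11 level, and what their reads are was not tested. Among 5324 such coding rows with at least 1 CPM at day 11, the median row held 4.91% of its day 11 CPM in day 16 replicate 2, and 5.62% and 6.75% in day 30 replicates 1 and 2. In day 16 replicate 1 it held 18.6%, so that library stood apart from the other 3. Rows of this class made up 10.4% of its gene counts, against 5.35% in day 16 replicate 2 and 5.19% and 5.59% at day 30. Their part of all counts was 44.1% and 42.5% at day 11. The genes of these rows were therefore also fitted alone, scaled among themselves, and "rose" or "fell" is used of them only where both the fit over all rows and this fit passed. For paired rows the second fit took rows with exon overlap only. Rows of the second class, and coding rows of the first, mix the gene with its opposite-strand neighbour and are not read as either.

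**Figure D1:**
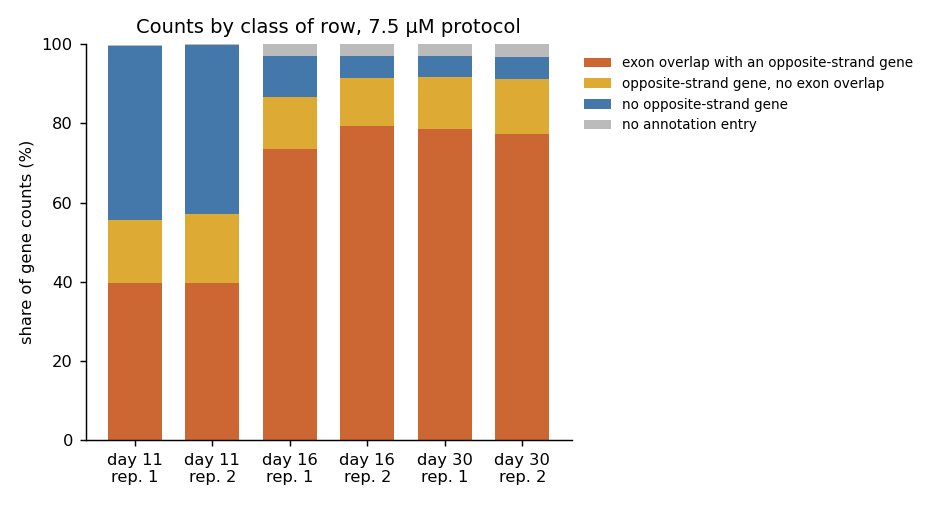
Share of gene counts (%, y axis) in each class of row for the 2 day 11, 2 day 16 and 2 day 30 libraries of the 7.5 µM protocol (x axis, 1 bar a library). Rows with no opposite-strand gene (blue) fall from 44.1% and 42.5% at day 11 to 10.4% in day 16 replicate 1 and to between 5.19% and 5.59% in the other 3.

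Gene counts came to 6.34 and 5.41 M in day 16 replicates 1 and 2 and to 5.66 and 5.46 M in day 30 replicates 1 and 2. At an adjusted p under 0.05 in edgeR's quasi-likelihood test (adjusted after Benjamini and Hochberg over all rows), 1053 of 15435 tested rows were higher at day 30 (6.82%) and 649 lower (4.2%). By class, 7.27% were higher and 4.4% lower of 7593 rows with exon overlap, 8.7% and 3.32% of 3252 rows with an opposite-strand gene but no exon overlap, and 4.49% and 4.42% of 4278 rows with no opposite-strand gene. Leaving out day 16 replicate 1 gave 4386 calls and leaving out day 16 replicate 2 gave 8078, while leaving out day 30 replicate 1 or 2 gave 39 and 261. In these the lone library of a day is assumed to vary like the pair of the other day. The totals of named rows that follow include rows with no call from all 4 libraries. The share of calls lost is thus larger than these totals give. Of the 149 rows named by rule that could be fitted without day 30 replicate 1, 119 lost their call, and of 150 without day 30 replicate 2, 86 lost it.

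Of the paired rows, 952 passed the filter on low counts, for 907 partner genes. Over all rows 108 were higher (11.3%) and 45 lower (4.73%). In both fits 102 rows rose (10.7%, 98 partners) and 35 fell (3.68%, 35 partners), and all 137 had the same sign without day 16 replicate 1. The median log2 fold change was 0.05 over the paired rows and -0.18 over all rows. Among the listed genes read this way, the 1 postsynaptic gene, both axon guidance genes and 1 of 2 channel genes rose, while the 1 progenitor gene, the 1 mitosis gene, both floor plate genes and 1 of 2 WNT genes fell. The plot of paired rows shows examples with their 4 libraries.

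The row opposite GRIN2B, a subunit of the NMDA receptor for glutamate, had 9 and 11 counts at day 16 and 5615 and 2337 at day 30. The days did not overlap, and the fitted log2 fold change was 8.83 ± 0.67 (standard error; edgeR adjusted p = 1.4e-10), and 8.37 without day 16 replicate 1. GRIN2B's own row, which shares exons with the same antisense locus, had 4 and 7 counts against 113 and 58 and also passed both fits. That did not hold for most partners: of 106 tested own rows of genes whose paired row passed, 26 passed over all rows in the same direction and 3 in the other, and 79 had the same sign. These own rows mix both strands. The row opposite SLC6A17, a vesicular transporter of neutral amino acids, had 0 counts in both day 16 libraries and 248 and 119 at day 30. With a floor of 3 counts over the day 16 pair this was at least 147-fold higher (edgeR adjusted p = 6.84e-07). Opposite HTR5A, a serotonin receptor, the row had 0 and 0 against 65 and 15 counts, at least 32.2-fold higher (adjusted p = 0.000249 in edgeR, not past the threshold without day 16 replicate 1, where it was 0.075). The day 30 libraries differed most for RASGRF1, an exchange factor for Ras, with 164 and 14 counts against 0 and 0. That is at least 71.5-fold higher, and the call did not hold without day 16 replicate 1 (adjusted p = 0.497 in edgeR).

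The row opposite GABRG3, a GABA-A receptor subunit, went from 17 and 25 to 613 and 236 counts (4.49). Opposite PTPRN, a protein of dense-core secretory vesicles, counts rose from 509 and 424 to 4920 and 2447 (3.20). The naming rule did not give this row, and it was picked after its values were seen. Further receptor genes, picked after their values were seen, were CHRNA4, a nicotinic receptor subunit (46 and 70 against 351 and 266 counts, log2 fold change 2.53), and GRM5, a metabotropic glutamate receptor (30 and 24 against 164 and 78 counts).

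Of the 2 listed channel genes read through a paired row, 1 rose. The row opposite CACNA1C, the pore of an L-type calcium channel, rose from 43 and 83 to 830 and 611 counts (log2 fold change 3.60, standard error 0.59, edgeR adjusted p = 8.22e-05, and 2.99 without day 16 replicate 1). CACNA1C's own row had 403 and 411 against 446 and 514 counts and did not pass (0.41). Among other paired rows that passed both fits, potassium channel genes were KCNC2 (151 and 183 against 1601 and 986 counts, log2 fold change 3.11), KCNMA1 (51 and 81 against 526 and 510, 3.08) and the channel-binding protein KCNIP2 (235 and 187 against 908 and 793, 2.23). These 3 were named after their values were seen. For SCN8A, a sodium channel of axons, the row had 199 and 149 counts against 412 and 316. It did not pass with all 4 libraries (1.30, edgeR adjusted p = 0.121), and its change was 1.16 without day 16 replicate 1.

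Both listed axon guidance and adhesion genes read this way rose. Of 5 tested rows of the same list with no opposite-strand gene, described below, 1 rose and 1 fell. The row opposite NCAM1, the neural cell adhesion molecule, had 741 and 1101 counts at day 16 and 6178 and 4579 at day 30. Its scaled level rose from 163 ± 98.8 to 1030 ± 254 CPM (SD, n = 2), a log2 fold change of 2.66 ± 0.47 (standard error; edgeR adjusted p = 0.000216), and 2.16 without day 16 replicate 1. The row stood at 0 CPM at day 11, where NCAM1 itself stood at 287 CPM. The row opposite EPHA5, a receptor for ephrins on axons, rose from 7 and 3 to 368 and 424 counts (6.56, standard error 0.74, edgeR adjusted p = 1.99e-07), while its own row, with 398 and 374 against 317 and 403, did not pass (0.08). Both rows opposite CHL1, a close relative of L1 adhesion molecules, passed, the larger with 767 and 968 against 3857 and 6041 counts (2.64). The CHL1 rows were picked after their values were seen. KLHL1, an actin-binding neuronal protein, is read through ATXN8OS, with 7 and 0 counts against 285 and 145 (6.27, and 10.72 without day 16 replicate 1, which leaves a day 16 count of 0 and so sets no fold). The row opposite MYT1L, a zinc finger factor of postmitotic neurons, had 6 and 2 counts against 88 and 94 (4.77). Not every neuronal row passed: opposite NEFM, a neurofilament subunit, counts were 1097 and 1601 against 3548 and 2348 (1.24, edgeR adjusted p = 0.0793).

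**Figure D2:**
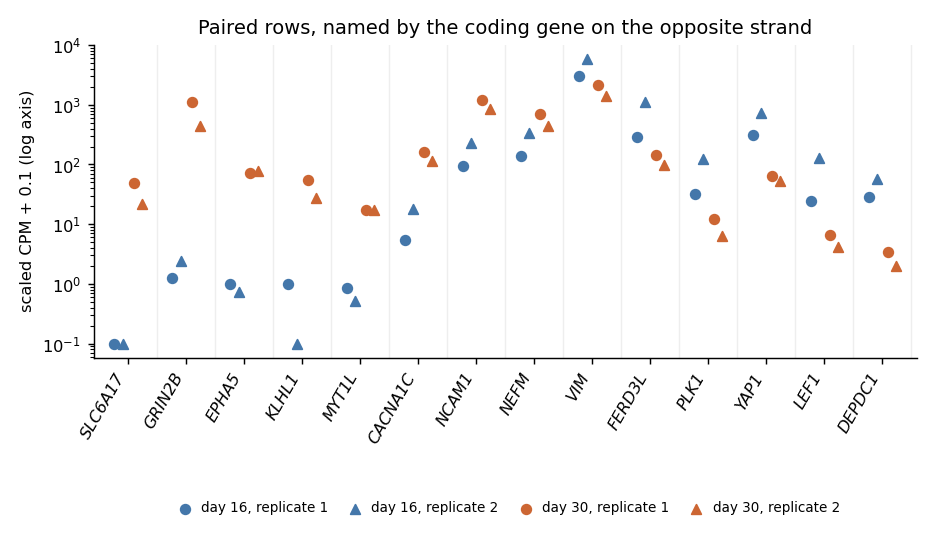
Scaled CPM plus 0.1 (log axis) of 14 paired rows in each of the 4 libraries, labelled by the coding gene on the opposite strand (blue day 16, orange day 30, circles replicate 1, triangles replicate 2). From SLC6A17 to NCAM1 all day 30 points lie above the day 16 points, NEFM did not pass the test, and from VIM to DEPDC1 all day 30 points lie below.

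On the lower side, the row opposite VIM, the intermediate filament vimentin, was the listed progenitor gene. It had 24045 and 27704 counts at day 16 and 11098 and 7487 at day 30, a fall of scaled level from 4450 ± 2010 to 1780 ± 554 CPM (SD, n = 2). The log2 fold change was -1.32 ± 0.42 (standard error; edgeR adjusted p = 0.0345), and -1.70 without day 16 replicate 1. A second row opposite VIM, VIM-AS1, had 3757 and 8374 counts against 2899 and 1268 and passed only the fit over all rows (-1.48). The row opposite VCAN, the matrix proteoglycan versican, had 10787 and 16066 against 4437 and 2953 counts (-1.75), and was picked after its values were seen.

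Of the 2 listed WNT genes read through a paired row, 1 fell. The row opposite LEF1, the transcription factor through which beta-catenin acts, had 190 and 607 counts at day 16 and 33 and 22 at day 30. The days did not overlap, though the day 16 libraries were far apart, at 76.3 ± 74 CPM scaled (SD, n = 2) against 5.27 ± 1.68. The log2 fold change was -3.85 ± 0.70 (standard error; edgeR adjusted p = 0.000283), and -4.58 without day 16 replicate 1. The row opposite YAP1, the coactivator of the Hippo pathway, fell from 2488 and 3500 counts to 327 and 286 (-3.17, standard error 0.49, edgeR adjusted p = 4.14e-05), and that opposite DAAM2, a WNT pathway formin, from 65 and 190 to 13 and 18 (-3.02). The row opposite DAAM2 also shares exon bases with a gene on its own strand. Opposite LGR5, a receptor that strengthens WNT signals, the row had 35 and 17 counts against 19 and 25 and did not pass (0.06).

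Both listed floor plate and patterning genes fell. Opposite FERD3L, a bHLH factor of the floor plate, counts fell from 2318 and 5352 to 732 and 519 (-2.57, standard error 0.51, edgeR adjusted p = 0.000786), and its own row, with 29 and 46 against 19 and 28, did not pass (-0.57). The row opposite NKX2-2, a homeobox gene of the ventral neural tube, had 23 and 15 counts at day 16 and 0 in both day 30 libraries, at least 10.5-fold lower. Opposite ZEB2, a zinc finger factor of neural crest and neurons, counts fell from 123 and 359 to 29 and 37 (-2.86). That row also shares exon bases with a gene on its own strand.

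The listed mitosis gene fell. The row opposite PLK1, a kinase needed for mitosis, fell from 254 and 582 counts to 61 and 33, with a log2 fold change of -3.10 and a standard error of 0.64 (edgeR adjusted p = 0.00127), and -3.75 without day 16 replicate 1. PLK1's own row had 58 and 19 against 13 and 14 counts and did not pass (-1.15). Opposite CLSPN, the replication checkpoint protein claspin, counts were 106 and 104 against 8 and 12 (-3.20). Opposite DEPDC1, which is expressed in mitosis, they were 222 and 267 against 17 and 10 (-4.02). The naming rule also gave ACTC1, cardiac actin, which fell from 615 and 597 counts to 22 and 24 (-4.53), and LMOD1, a smooth muscle leiomodin, with 455 and 596 against 22 and 29 (-4.23). The row opposite PDE5A, which breaks down cyclic GMP, had 4685 and 5728 against 239 and 268 counts (-4.22), but the row stood at 25.4 CPM at day 11, and its own RNA cannot be told apart from PDE5A.

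Of rows with no opposite-strand gene, 4049 were tested in both fits. In both, 143 rose (3.53%) and 64 fell (1.58%). Over these rows the median log2 fold change was -0.47 in the fit over all rows and -0.09 when they were scaled among themselves, a fit that by itself called 4.1% of 4074 rows higher and 1.57% lower. Without day 16 replicate 1 the second fit called 1184 rows in place of 231, 15.0% of 4525 tested rows higher and 11.2% lower. Values of this class are given as the fold change scaled within the class unless said otherwise.

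COL28A1 (ENSG00000215018), a collagen of the beaded-filament type found around peripheral nerve, had the largest fitted change of the coding rows named in this class with counts at both days. It had 9 and 1 counts at day 16 and 604 and 410 at day 30. Both day 30 libraries lay far above both day 16 libraries, and the log2 fold change was 7.52 within the class and 6.99 over all rows (standard error 0.76, edgeR adjusted p = 1.39e-07), and 8.70 without day 16 replicate 1. Its CPM in day 30 replicates 1 and 2 was 12600% and 8840% of its day 11 CPM, where the median row of the class held 5.62% and 6.75%. No gene lies within 5 kb on the opposite strand. Whether these reads are COL28A1 message or an RNA not annotated on the other strand was not tested.

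The naming rule gave further high rows in this class. SSTR1, a somatostatin receptor, had 0 and 0 counts at day 16 and 47 and 20 at day 30, at least 26.9-fold higher over all rows. HS6ST3, a heparan sulfate sulfotransferase, rose from 15 and 4 to 324 and 175 counts (5.52), CA10, a secreted ligand of neurexins, from 6 and 0 to 60 and 87 (5.43, and 9.11 without day 16 replicate 1, again against a count of 0), and PDLIM3 from 4 and 2 to 62 and 61 (5.00). VGF, a secreted neuropeptide precursor, had 14 and 9 counts against 288 and 93 (4.66). CHRNA6, a nicotinic receptor subunit known from midbrain dopamine neurons, had 4 and 1 against 54 and 25 (4.71). CLDN11, a claudin, rose from 57 and 65 to 2126 and 1967 counts (5.37), but a gene on its own strand shares its exons and SLC7A14 lies within 5 kb on the other. VGF has AP1S1 within 5 kb on the opposite strand. Other rows described below also have such a neighbour, among them KCNJ3, SV2B, SNCB, COL2A1, CNTN2 and OTX1.

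**Figure D3:**
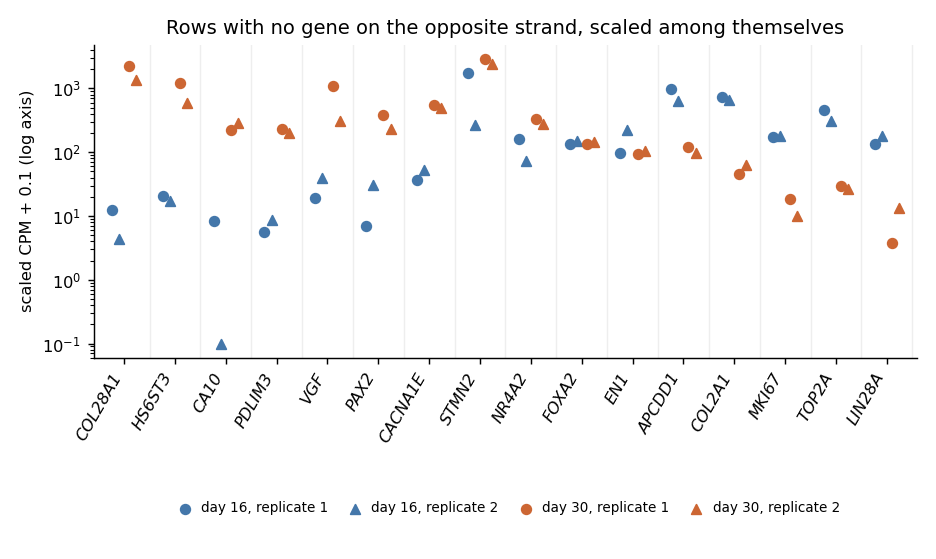
Scaled CPM plus 0.1 (log axis) of 16 rows with no opposite-strand gene, scaled among the rows of that class, in the 4 libraries (blue day 16, orange day 30, circles replicate 1, triangles replicate 2). COL28A1 to CACNA1E are higher at day 30 in both libraries, STMN2, NR4A2, FOXA2 and EN1 did not pass, and APCDD1 to LIN28A are lower in both.

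Of the tested rows of this class, 5 of 11 mitosis and 2 of 5 replication rows fell, and none rose. Of all rows of the class 1.58% fell and 3.53% rose. MKI67 (ENSG00000148773), the Ki-67 antigen of dividing cells, had 127 and 42 counts at day 16 and 5 and 3 at day 30. Its days did not overlap, and it fell by 3.61 on the log2 scale within the class (edgeR adjusted p = 0.0259). Over all rows the change was -3.99 ± 0.89 (standard error; edgeR adjusted p = 0.00227), and -3.48 without day 16 replicate 1. TOP2A, topoisomerase II alpha, had 337 and 72 against 8 and 8 counts (-3.76), and TPX2, a spindle protein, 114 and 21 against 6 and 5 (-2.66). CDK1, the kinase that drives entry into mitosis, had 89 counts over the day 16 pair against 1 over the day 30 pair, a ratio of 73.8 (95% interval 12.9 to 2950). AURKB, Aurora kinase B, had 24 and 10 against 0 and 0, at least 9.4-fold lower.

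Of the 22 mitosis genes listed, 15 had a row of this class and 11 of these passed the filter on low counts, of which 0 rose and 5 fell in both fits (9 were lower in the fit over all rows). Without day 16 replicate 1, CDK1 and AURKB were too low to be tested within the class. The list's median was -3.31 within the class, and -2.89 without day 16 replicate 1, beside -0.09 for all rows of the class. All 11 had a negative sign, the weakest being NUSAP1 with 171 and 51 against 47 and 59 counts (-0.28). Of 18 DNA replication genes, 10 had such a row and 5 were tested, of which 2 fell, MCM3 and MCM5, subunits of the replicative helicase. MCM3 had 118 and 40 counts against 1 and 5 (-3.95). MCM5 had 41 and 11 against 0 and 1, a ratio of 43.1 (95% interval 7.41 to 1740), and was too low to be tested without day 16 replicate 1.

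Progenitor and Notch pathway genes gave 4 calls in both fits, all lower at day 30, where 1.58% of all rows of the class fell. In the Notch and proneural list 7 of 12 such rows were tested and 3 fell: NOTCH2, a receptor (206 and 56 against 11 and 17, -2.41), DLL3, a ligand-like inhibitor (115 and 38 against 7 and 9, -2.50), and NHLH1, a bHLH factor of newly born neurons. Over both libraries NHLH1 went from 250 counts to 2, 104-fold by counts (95% interval 28.4 to 861), and 240 of the 250 lay in day 16 replicate 1, without which it was too low to be tested. HES1, the main Notch target, had 34 and 14 against 0 and 2 counts and passed over all rows only (edgeR adjusted p = 0.062 within the class). Of 5 tested progenitor rows 1 fell, LIN28A, a blocker of let-7 maturation in early cells, with 98 and 42 against 1 and 4 counts (-4.11). NES, nestin, had 1050 and 559 against 74 and 185, and passed over all rows only (-2.36 there, and -2.10 within the class with edgeR adjusted p = 0.125). Without day 16 replicate 1 the NES change within the class was -2.41. Rows of SOX2 and HES5 held 0 counts in all 4 libraries, and in the day 11 tables SOX2 stood at 219 CPM, so a 0 in these tables does not show that a gene was silent.

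Midline and WNT genes were split. SHH, the floor plate signal, fell from 101 and 44 to 7 and 7 counts (-2.70), and OTX1, a forebrain and midbrain homeobox gene, from 54 and 23 to 2 and 3 (-3.23). PAX2, a factor of the midbrain-hindbrain boundary and of some interneurons, rose from 5 and 7 to 101 and 69 (4.27). OTX2 had 785 and 127 against 49 and 42 counts, lower over all rows (-2.86) and not within the class (-2.33, edgeR adjusted p = 0.0625). Without day 16 replicate 1 the OTX2 change within the class was -1.75. In this list 7 of 9 such rows were tested, with 1 up and 2 down, where 3.53% of all rows of the class rose and 1.58% fell. APCDD1, a membrane inhibitor of WNT, fell from 726 and 146 to 32 and 29 (-2.90), the 1 called of 4 tested WNT rows. AXIN2, the standard feedback target, had 79 and 37 against 11 and 15 and did not pass with all 4 libraries (-1.53). Its change within the class was -1.78 without day 16 replicate 1.

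In the synaptic vesicle list 3 of 11 tested rows rose and 0 fell (edgeR), where 3.53% of all rows of the class rose and 1.58% fell. Of 26 genes, 12 had a row of this class, and the 11 tested had a positive sign and a median of 2.13 within the class. Without day 16 replicate 1 the list's median within the class was 2.72. The 3 that rose in both fits were CHGA, chromogranin A of secretory granules (60 and 10 against 141 and 96 counts, 2.71), SV2B, a vesicle glycoprotein, and SNCB, beta-synuclein. SV2B had 3 counts over the day 16 pair and 47 over the day 30 pair, a ratio of 18.9 (95% interval 6.08 to 94.9); its fitted change was 4.69, and 7.49 without day 16 replicate 1. SNCB had 2 and 31, a ratio of 18.7 (95% interval 4.76 to 161). Among channels 5 of 7 such rows were tested in both fits and 2 rose, CACNA1E, an R-type calcium channel (27 and 12 against 147 and 149, 3.59), and KCNJ3, an inward rectifier (2 and 3 against 61 and 22, 4.59). SLC5A7, the choline transporter, rose from 6 and 1 to 20 and 14 counts (3.06), and CNTN1, a contactin of axons, from 22 and 1 to 52 and 66 (3.35, and 5.45 without day 16 replicate 1). CNTN2, a contactin of growing axons, fell from 1173 and 111 to 23 and 42 (-3.20), and without day 16 replicate 1 by 2.06 on the log2 scale. CNTN1 and CNTN2 were the 1 higher and the 1 lower of 5 tested axon guidance and adhesion rows of this class. That list's median was -1.17 within the class, with 2 positive and 3 negative signs, and -0.22 without day 16 replicate 1.

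**Figure D4:**
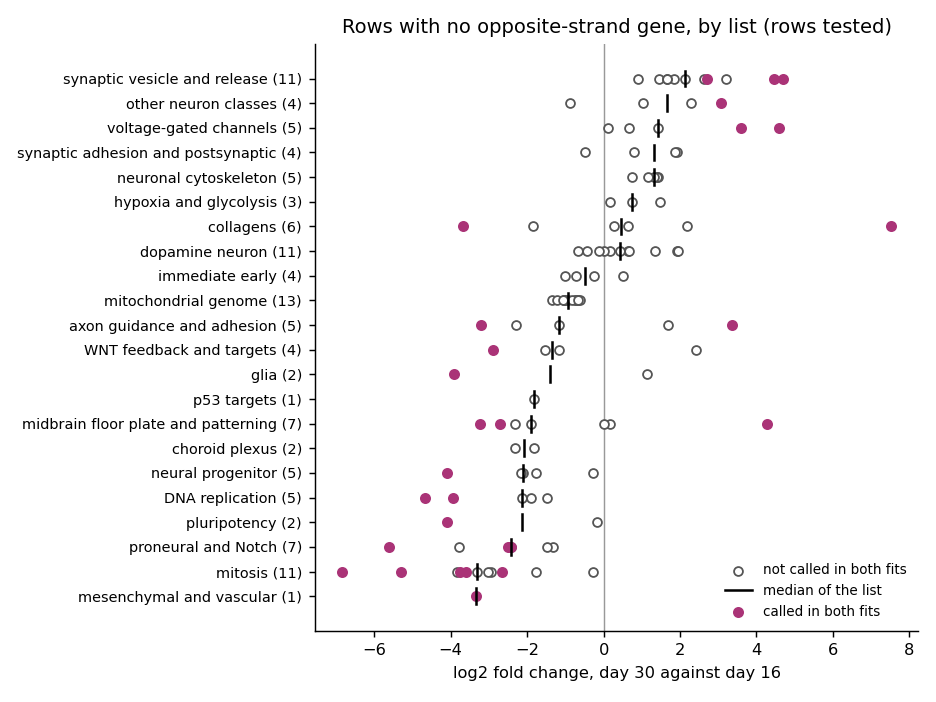
Log2 fold change within the class (x axis, day 30 against day 16) of each tested row with no opposite-strand gene, by gene list (y axis, number of rows tested in brackets). Filled points passed both fits, open points did not, and bars are list medians, from 2.13 for synaptic vesicle genes to -3.31 for mitosis genes and -3.34 for the single mesenchymal row.

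Of 5 tested neuronal cytoskeleton rows 0 passed in either direction with all 4 libraries (edgeR), where 3.53% of all rows of the class rose and 1.58% fell. All 5 had a positive sign within the class. They had a median of 1.31 within the class and of 2.30 without day 16 replicate 1. STMN2, a microtubule regulator of growing axons, had 1302 and 61 counts at day 16 and 775 and 737 at day 30, so that the day 16 libraries lay on both sides of day 30. Its change over all rows was 0.70 and did not pass, and 3.50 without day 16 replicate 1. DCX, doublecortin of migrating neurons, had 1219 and 130 against 426 and 648 (0.75). Summed counts of the cytoskeletal rows were 4640 and 566 in day 16 replicates 1 and 2 and 2924 and 2699 at day 30, the same library that held more counts of this class as a whole. Its part in the results was not tested.

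Dopamine neuron genes gave no call with all 4 libraries. Of 22 listed, 13 had a row of this class and 11 were tested in both fits. Of these 0 passed in either direction, where 3.53% of all 4049 rows of the class rose and 1.58% fell. Shares that small leave few calls to be found among 11 rows. The median was 0.43 within the class (0.26 over all rows and -0.09 without day 16 replicate 1). TH, the rate-limiting enzyme of dopamine synthesis, had 14 and 2 counts at day 16 and 29 and 3 at day 30, and each replicate 1 was higher than each replicate 2 (edgeR adjusted p = 0.353 over all rows, too few counts for the fit within the class). NR4A2, a transcription factor these neurons require, had 118 and 17 against 88 and 84 (1.34 within the class), and passed without day 16 replicate 1 over all rows (2.20, edgeR adjusted p = 0.00136). Within the class, the largest changes without that library were those of DLK1, TH, NR4A2, RET and EN1. DLK1, a Notch-like membrane protein, had 86 and 4 against 63 and 97 counts (4.00 without that library). RET, the receptor for GDNF family ligands, had 32 and 15 against 52 and 63 (1.65). TH stood at 2.68, NR4A2 at 2.06 and EN1, lower, at -1.17. FOXA2, a floor plate factor kept by dopamine neurons, had 97 and 35 against 36 and 44 (-0.0), EN1 71 and 52 against 25 and 31 (-0.68), LMX1B 426 and 145 against 216 and 161 (0.16) and PITX3 12 and 16 against 14 and 20 (0.63). A p that misses the threshold does not show equal levels.

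Genes that mark other cells were mostly at the bottom of the range. COL6A3, LUM, DCN and PDGFRB, which mark fibroblasts and pericytes, had 0 to 2 counts in every library. Counts summed over the 8 mesenchymal and vascular rows of this class were 152 and 33 at day 16 and 29 and 18 at day 30, most of them from PRRX1, which fell from 127 and 27 to 4 and 4 (-3.34). The glial genes S100B, AGT and PDGFRA had 0 or 1 count each. GJA1, connexin 43 of astrocytes and progenitors, fell from 87 counts over the day 16 pair to 3 over the day 30 pair, a ratio of 24.1 with a 95% interval of 7.96 to 119. TTR, the marker of choroid plexus, had 129 and 16 against 11 and 9 (-1.82, not passing). The 4 neural crest rows summed to 12 and 2 against 2 and 4 counts. The pluripotency genes NANOG and PRDM14 had 0 counts throughout. Since rows of this class hold a small remainder of a gene's reads, a low count limits its level only weakly.

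Collagens moved in both directions. Of 25 listed, 13 had a row of this class, 6 were tested in both fits, 1 rose and 1 fell. Of all rows of the class 3.53% rose and 1.58% fell. The one that fell was COL2A1, the main cartilage collagen, also made by neural tube cells, from 531 and 153 to 12 and 19 counts (-3.67). COL6A2 had 30 and 65 against 219 and 181 counts, higher over all rows (2.14) but not within the class (2.19, edgeR adjusted p = 0.187). In the fit over all rows 7 of 13 mitochondrial rows were lower, and 0 within the class (edgeR). MT-ND6, the one protein gene of the light strand, had 41572 and 33406 counts against 18258 and 16156 (-0.91 over all rows, not passing). Its row stood at 6160 scaled CPM at day 16 and 3290 at day 30, and at 80.1 CPM at day 11. That is far more than a small remainder, and MT-ND5 lies within 5 kb on the opposite strand. Whether these reads are MT-ND6 message or RNA of the other strand was not tested.

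Of the 3 genes given to mark this comparison, COL28A1 and MKI67 have no annotated opposite-strand gene, with the limit given above for COL28A1, and NEFL has one. NEFL (ENSG00000104725), the light neurofilament subunit, had 373 and 100 counts at day 16 and 1260 and 950 at day 30. Its log2 fold change was 2.63 ± 0.51 (standard error; edgeR adjusted p = 0.000643), and 3.34 without day 16 replicate 1. Its exons overlap those of AC107373.2 on the other strand by 490 bases, a gene at 0.241 CPM at day 11. The row of AC107373.2, which would take misassigned NEFL reads, had 0 and 2 counts at day 16 and 13 and 1 at day 30. NEFL and an opposite-strand RNA cannot be told apart in these counts.

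Several large changes belong to rows that cannot be assigned. The row of WTAPP1, a pseudogene with MMP1, MMP3 and a further pseudogene opposite it, had 1 and 1 counts at day 16 and 3587 and 563 at day 30, a ratio of 2500 (95% interval 692 to 20700, which covers counting error only). The day 30 libraries were far apart, and the call did not hold without day 16 replicate 1 (edgeR adjusted p = 0.337). CACNA2D3, a calcium channel subunit with an antisense gene opposite its exons, had 2089 and 5385 against 102 and 130 (-4.99). WNT5A, a WNT ligand with another gene in its introns, had 574 and 169 against 11 and 11 (-4.68). MAP2, a dendritic microtubule protein in the same class, had 1683 and 174 against 401 and 579, and its change of -0.42 was 1.35 without day 16 replicate 1. MAPT, the axonal protein tau, had 60 and 5 against 135 and 124 (2.47), and SLC17A6, the vesicular glutamate transporter, 131 and 22 against 156 and 274 (1.92). Each of the last pair passed over all rows and not among rows with exon overlap (edgeR adjusted p = 0.132 and 0.146). Without day 16 replicate 1 they passed in both, at 4.53 and 3.14 over all rows. TUBB3, neuronal tubulin, had 1 count over all 4 libraries. Over the 268 tested of 381 listed genes with a row, whatever their class, 26 were higher and 57 lower, where all rows gave 6.82% higher and 4.2% lower.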

How the data were processed

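Gene counts were deposited by the authors as 1 table per library. Per the submitters' processing notes, STAR 2.4.2a, featureCounts 1.4.2, HTSeq 0.5.3, DESeq2 1.12.4 and the hg19 genome were used; which strand the kit marks and how reads were assigned to genes is not given in the sources used here. Where the series text has day 20 and a boost to day 9, the labels have day 16 and day 10 and are followed.

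Rows were matched to GENCODE 29 (GRCh38) by identifier (52338 rows) or a unique symbol (814), and no coordinates are given. The 4 libraries were fitted without covariates by the robust quasi-likelihood method of edgeR 4.0.16 in R 4.3.3, with limma 3.58.1, after filterByExpr and TMM scaling, and p-values were adjusted after Benjamini and Hochberg (threshold 0.05). DESeq2 1.42.0 was an alternative. Day 11 levels are CPM from separate tables, described without a test. Levels are TMM-scaled CPM. Bounds (floor of 3 counts) and ratios are scaled by library and cover counting error only. On simulated data for this comparison (14656 rows) the test called 25 of 100 rows changed 4-fold, 2 of 100 changed 2-fold and 0 unchanged ones.

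Members, the 23 gene lists and the naming rule were chosen with earlier results of these data known. The rule names the 12 higher and 12 lower coding genes of largest change with no opposite-strand gene, at least 5 CPM and no overlap of days, up to 4 called members per list, 25 set genes, and the 6 higher and 6 lower exon-overlap rows. The reading of paired rows, the 18 named in each direction and the second fits on exon-overlap rows were added after the data were seen. Some rows that the rule names are not reported here. The sample descriptions carry 1 code for both replicate 1 libraries and another for both replicate 2 libraries, without saying what it marks.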

Additional observations from a re-analysis of the deposited data

How the results depend on the processing

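Over all rows, 1702 calls became 1683 with DESeq2, 1804 with its size factors and 1712 without the filter. Leaving out each library gave 39 to 8078 calls over all rows, 3 to 2643 among rows with no opposite-strand gene (381), 2 to 173 among listed genes (83) and 4 to 461 among paired rows (153). The deviations of same-numbered libraries from their day means had a correlation of -0.2222 over 15435 rows. With 2 libraries for each day this cannot decide whether replicate numbers pair the libraries. With the replicate block there were 1067 calls over all rows, 222 among rows with no opposite-strand gene and 49 among listed genes, and with the crossed pairing 1749 over all rows. Rows with no opposite-strand gene gave 231 calls when fitted alone, and 1184 when also without day 16 replicate 1. In the fit over all rows the 381 became 217 without rows that have an opposite-strand gene within 5 kb, and 772 with intron overlap allowed. Listed genes gave 29 calls in the fit of that class. Paired rows gave 357 among exon-overlap rows without day 16 replicate 1. The cause of these shifts was not tested. MAP2 (-0.42) ranged from -1.12 to 1.35 over the libraries left out and reversed without day 16 replicate 1. Among the named rows, which include some with no call in the main fit, 21 of 150 lost a call with the block and 12 of 149 with DESeq2. Rows with no opposite-strand gene hold 5.19% to 10.4% of counts, which limits their depth.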
